A study of Mus musculus with 6 samples.

Results

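The epidermal differentiation cluster is a run of genes on mouse chromosome 3 that build the outermost, cornified layer of the skin, and it was examined here in a fibroblast line. The members were all genes of the deposited table on chromosome 3 whose symbol begins with Lce, Sprr, Flg or Tchh, together with Ivl, Hrnr, Rptn, Kprp and Crct1. There were 45 of them among the 21929 genes of the table, and the S100a genes of the same interval were left out of the membership. The cluster was chosen from the FPKM values of the comparison reported here, so the members' values are given as a description and carry no test. All 6 libraries came from L929 cells, an established line of mouse connective tissue fibroblasts, recovered from co-culture with tumour cells. The 3 Biotin-positive libraries are labelled as L929 cells after interaction with tumour cells, which the labels name by the unexpanded abbreviation MFCSTCL. The 3 Biotin-negative libraries are labelled as L929 cells without interaction with tumour cells. The series title places the work in gastric cancer, and all 6 libraries carry the same batch label. The way in which biotin marked the interacting cells, and any mouse genotype beyond the cell line, are not given in the sources used here.

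As background, a keratinocyte that reaches the skin surface replaces its plasma membrane with the cornified envelope, a shell of proteins cross-linked by transglutaminases. Involucrin (Ivl) is laid down early as a scaffold, small proline-rich proteins (the Sprr genes) act as cross-bridges, and late cornified envelope proteins (the Lce genes) are added towards the end. Filaggrin (Flg), filaggrin 2, hornerin, repetin and trichohyalin are large proteins that join an S100-type calcium-binding domain to repeats, and filaggrin bundles keratin filaments. Crct1 is the cysteine-rich C-terminal 1 gene, which lies among the Lce genes. Fibroblasts are not cells that build a cornified envelope.

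The values are FPKM, fragment numbers adjusted for the length of the gene and the size of the library, and the number of reads per library is unknown. FPKM summed over all genes to between 349753 and 356681 in Biotin-positive libraries and to between 337771 and 340511 in Biotin-negative libraries. Between 10838 and 10862 genes reached 1 FPKM in Biotin-positive libraries, against 10724 to 10735 in Biotin-negative libraries. Of 10 fibroblast marker genes, 9 were at 1 FPKM or more in every library of both groups, with a summed level of 2625 to 2696 FPKM in Biotin-positive and 3940 to 4155 FPKM in Biotin-negative libraries. Fn1, the fibronectin gene, carried the lower sum. The 9 other markers summed to 2450 to 2521 FPKM in Biotin-positive and 1997 to 2046 FPKM in Biotin-negative libraries. Of the 10 markers, 7 were lower in every Biotin-positive library, Fn1, Col1a1, Col1a2 and Col3a1 among them. The 2 that were higher in every one, Vim and S100a4, carried the higher sum of the 9. Vim averaged 1418 FPKM in Biotin-positive and 658 FPKM in Biotin-negative cells. A listed 0, or a value near 0, can be a failed estimate here, because some genes used by many cell types are also at or near 0. Marcks, a substrate of protein kinase C, was at 8.34, 7.90 and 8.94 FPKM in the Biotin-positive libraries with a listed 0 in each Biotin-negative library. Tmsb4x was at 33.5 to 38.2 FPKM in Biotin-positive and 0.0842 to 0.201 FPKM in Biotin-negative libraries. Rhob was at 35.4 to 37.1 FPKM in Biotin-positive and 0 to 0.105 FPKM in Biotin-negative libraries. Of 79 ribosomal protein genes, 1 was listed at 0 in every library of a group. Whether the libraries of a group stem from separate cultures is not labelled. The p-values below set a group difference against the spread among these 6 libraries, and may not cover variation between cultures.

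Nearly all of the cluster was at or near 0 FPKM in both groups, apart from Crct1 and Lce1g in Biotin-positive cells. Crct1 (ENSMUSG00000027913) stood at 14.2, 12.1 and 12.1 FPKM in the Biotin-positive libraries. In the Biotin-negative libraries Crct1 was listed at 0, 0 and 0.0901 FPKM. Every Biotin-positive library was thus far above every Biotin-negative library, and the Biotin-positive libraries averaged 12.8 ± 1.21 FPKM (SD, n = 3). On the log2(FPKM + 1) scale, which understates the change of low genes, the difference of Crct1 was 3.74. Lce1g (ENSMUSG00000027919), a late cornified envelope gene, stood at 6.15, 5.13 and 4.71 FPKM in the Biotin-positive libraries with a listed 0 in each Biotin-negative library. Its Biotin-positive libraries averaged 5.33 ± 0.737 FPKM (SD, n = 3), and the groups did not overlap. Crct1 was 2.31 to 2.57 times as high as Lce1g in each Biotin-positive library, on a scale that corrects for gene length. Among the genes at 1 FPKM or more in the same Biotin-positive library, 51.0 to 55.9% lay below Crct1 and 22.8 to 29.1% lay below Lce1g. The level of Crct1 was thus near the middle of the expressed genes, not a trace. In bulk RNA, fewer cells of a type and less RNA per cell cannot be told apart.

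**Figure D1:**
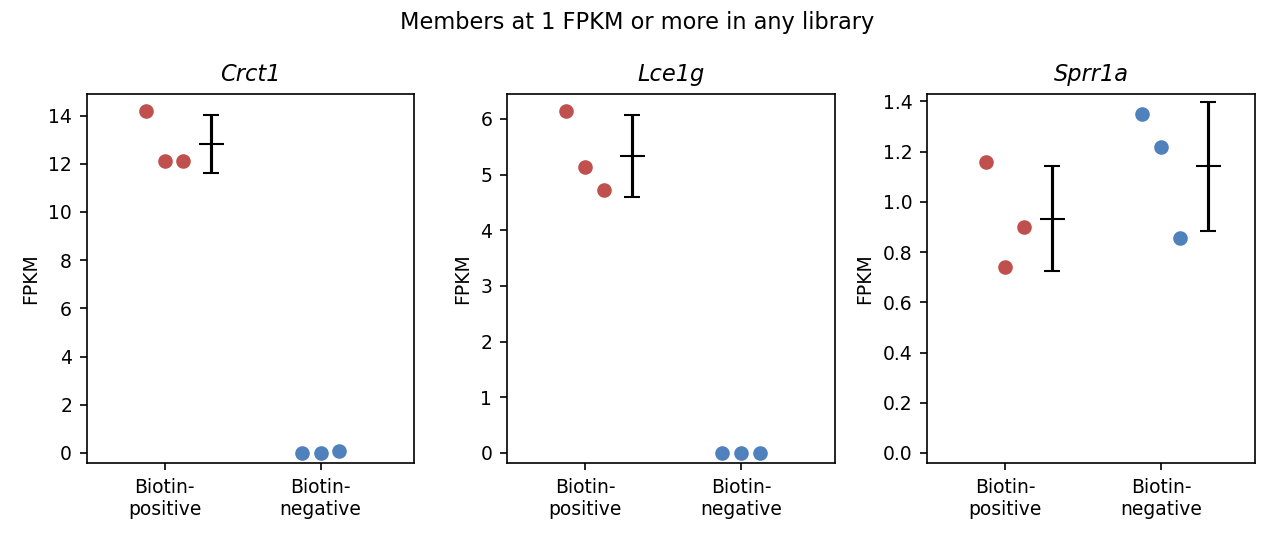
FPKM of Crct1, Lce1g and Sprr1a in each library of the Biotin-positive and Biotin-negative groups, 1 point per library, with the mean and SD of 3 libraries beside a group in which no library is listed at 0. The Biotin-positive libraries lie at 12.1 to 14.2 FPKM for Crct1 and 4.71 to 6.15 FPKM for Lce1g with the Biotin-negative libraries near 0, while the groups overlap for Sprr1a.

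Calling a gene on at 1 FPKM or more in every library of a group and off below 1 FPKM in every library of the other, 2 of 45 members (4.44%) were on in Biotin-positive and off in Biotin-negative cells. Over all 21929 genes, 293 (1.34%) followed that pattern. No member was on in Biotin-negative and off in Biotin-positive cells, a pattern held by 166 of all genes (0.757%). Lce1g was also among the 63 genes (0.287%) at 1 FPKM or more in every Biotin-positive library and listed at 0 in each Biotin-negative one. Since the cluster was chosen from this comparison, nothing is read from these shares.

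The members' levels were dominated by these genes. The summed FPKM of the 45 members was 22.4, 18.5 and 18.7 in the Biotin-positive libraries, against 1.71, 1.33 and 0.990 in the Biotin-negative libraries. Crct1 and Lce1g together made up 90.3 to 92.9% of the sum in Biotin-positive libraries. Without them the sum was 1.33 to 2.03 FPKM in Biotin-positive libraries and 0.900 to 1.71 FPKM in Biotin-negative libraries, ranges that overlap. With Sprr1a also left out, the remaining members summed to 0.583 to 0.916 FPKM in Biotin-positive libraries. In Biotin-negative libraries that sum was 0.0445 to 0.363 FPKM, so these low ranges do not overlap. Sprr1a made up 78.8 to 91.5% of the whole sum in Biotin-negative libraries and 4.00 to 5.17% in Biotin-positive libraries.

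By position, the members that were on stood alone among neighbours at or near 0 FPKM. Coordinates are those of the deposited table, which match GRCm38 rather than the GRCm39 named in the submitters' processing notes. The 45 members span chr3:92215799-93471980, which is 1256 kb. In order along the chromosome Sprr1a is the 14th member, Lce1g the 25th and Crct1 the 38th. Lce1g lies at chr3:92750148-92752338 on the minus strand and Crct1 at chr3:93014205-93015687 on the minus strand, with 262 kb between them. Of the 12 members between them, 11 were listed at 0 in all 6 libraries. The other, Kprp, a keratinocyte proline-rich protein gene, reached at most 0.0339 FPKM. The members next to Lce1g are Lce1f, 29.8 kb before it, and Lce1h, 10.9 kb beyond it, and both were listed at 0 in all 6 libraries. Next to Crct1 are Lce3f, 20.8 kb before it and listed at 0 in all 6 libraries, and Lce1m, 2.12 kb beyond it. Lce1m was at 0, 0.226 and 0.258 FPKM in the Biotin-positive libraries, against 0, 0.0949 and 0 FPKM in the Biotin-negative ones. The nearest member to Crct1 was thus low in both groups, and its groups overlapped.

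**Figure D2:**
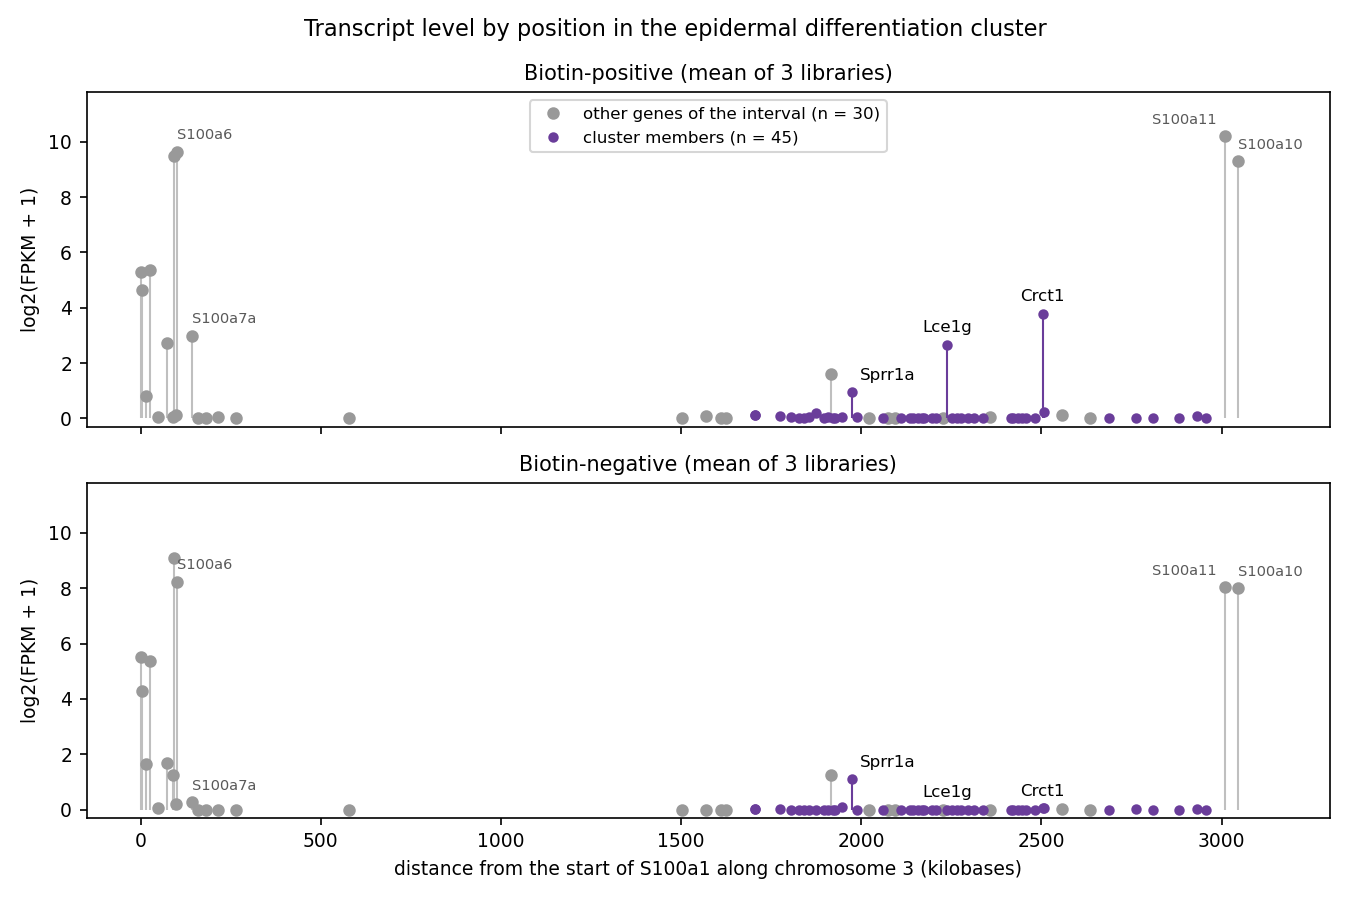
Mean log2(FPKM + 1) of 3 libraries by distance along chromosome 3 from the start of S100a1, in kilobases, for Biotin-positive cells above and Biotin-negative cells below, with the 45 members in purple and the 30 other genes of the interval in grey. Crct1 and Lce1g stand up from the baseline in Biotin-positive cells, Sprr1a is low in both groups, and the highest levels lie in the S100a genes at the ends of the interval.

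The promoters of Lce1g and its nearest relatives are shown because their sequences are alike while Lce1g alone of them was on. RefSeq (GRCm38.p6) gave a promoter for 41 of the 45 members, all but Crct1, Sprr2j-ps, Kprp and Lce1f, and the 250 bases before each start were read. All 3 Lce promoters and that of Sprr1a are on the minus strand, written 5′ to 3′, at chr3:92752339-92752588 for Lce1g, chr3:92778900-92779149 for Lce1i, chr3:92765066-92765315 for Lce1h and chr3:92485882-92486131 for Sprr1a. Capitals mark GGAATG, the core bound by TEAD factors (the DNA-binding partners of YAP), in Lce1g and Lce1i, and TGANTCA, the AP-1 motif, in Sprr1a.
Lce1g: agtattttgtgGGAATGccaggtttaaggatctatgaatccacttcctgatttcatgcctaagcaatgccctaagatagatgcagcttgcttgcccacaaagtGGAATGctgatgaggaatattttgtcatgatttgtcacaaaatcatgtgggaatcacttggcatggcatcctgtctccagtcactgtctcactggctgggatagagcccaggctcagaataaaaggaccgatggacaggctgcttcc
Lce1i: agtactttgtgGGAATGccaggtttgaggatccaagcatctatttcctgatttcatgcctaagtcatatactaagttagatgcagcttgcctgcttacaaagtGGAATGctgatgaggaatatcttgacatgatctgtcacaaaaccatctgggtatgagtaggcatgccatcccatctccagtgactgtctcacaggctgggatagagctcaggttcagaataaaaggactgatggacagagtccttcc
Lce1h: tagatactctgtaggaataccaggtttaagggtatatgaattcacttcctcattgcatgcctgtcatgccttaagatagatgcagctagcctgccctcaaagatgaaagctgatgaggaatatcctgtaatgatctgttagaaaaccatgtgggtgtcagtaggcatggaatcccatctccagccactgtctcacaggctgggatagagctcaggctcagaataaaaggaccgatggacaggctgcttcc
Sprr1a: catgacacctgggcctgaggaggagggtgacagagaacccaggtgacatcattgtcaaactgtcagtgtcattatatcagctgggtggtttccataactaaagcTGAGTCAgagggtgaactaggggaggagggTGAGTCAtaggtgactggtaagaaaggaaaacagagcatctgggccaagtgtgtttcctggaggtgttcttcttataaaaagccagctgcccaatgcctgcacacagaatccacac
The Lce1g promoter matched that of Lce1i at 85.6% and that of Lce1h at 84.5% of aligned bases. GGAATG begins 239 and 147 bases before the start in Lce1g and at the same positions in Lce1i, and no copy was found in the Lce1h window. Lce1g was at 4.71 to 6.15 FPKM in Biotin-positive libraries, whereas Lce1i and Lce1h were listed at 0 in all 6 libraries. These letters were thus shared by the gene that was on and a relative listed at 0. Searched on both strands, GGAATG was found in 8 of the 41 member promoters (19.5%) and in 12.6% of all 32851 promoters of the same length. Lce1g, Lce1i and Lce1l each held 2 copies, and 1.02% of all promoters held 2 or more.

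The AP-1 motif, searched on both strands, was found in 14 of the 41 member promoters (34.1%), against 6.75% of all promoters. It occurred in Sprr genes, Ivl, Flg2, Flg, Rptn and Tchhl1 and in none of the Lce windows. The TATA motif TATAAA, also searched on both strands, was found in 18 of 41 member promoters (43.9%) and in 12.4% of all promoters. The motifs do not overlap one another in the Sprr1a window, where TGAGTCA begins 146 and 116 bases before the start and TATAAA 43 bases before it. Of the members that hold the AP-1 motif, Sprr2d, Sprr2e, Sprr2i, Sprr2k, Sprr1b, Ivl, Rptn and Tchhl1 were listed at 0 in all 6 libraries. Sprr1a, Sprr2b, Sprr2f, Sprr2h, Flg and Flg2, which also hold it, were above 0 in at least 1 library. Over all members, 27 of 45 (60.0%) were listed at 0 in all 6 libraries, so nothing is read from this split. A match is a description of the letters, not of binding.

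The Sprr family, the cross-bridging proteins, was low in both groups and Sprr1a was its most abundant gene. Sprr1a (ENSMUSG00000050359), at chr3:92483952-92485895 on the minus strand, stood at 1.16, 0.742 and 0.898 FPKM in the Biotin-positive libraries, against 1.35, 1.22 and 0.855 FPKM in the Biotin-negative libraries. The means were 0.932 ± 0.209 FPKM in Biotin-positive and 1.14 ± 0.256 FPKM in Biotin-negative cells (SD, n = 3 each), a log2(FPKM + 1) difference of -0.15, and the groups overlapped. Of the 15 Sprr members, 5 were listed at 0 in all 6 libraries, namely Sprr2d, Sprr2e, Sprr2i, Sprr2k and Sprr1b. Summed over the family, the level was 1.00 to 1.94 FPKM in Biotin-positive and 0.888 to 1.65 FPKM in Biotin-negative libraries, so the ranges overlapped.

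Sprr2a1 stood at 0.0923, 0.0943 and 0.0665 FPKM in the Biotin-positive libraries, against 0.0464, 0 and 0.0237 FPKM in the Biotin-negative libraries. Sprr2a2 stood at 0.0936, 0.0968 and 0.0686 FPKM in the Biotin-positive libraries, against 0.0428, 0 and 0.00963 FPKM in the Biotin-negative libraries. Both were higher in every Biotin-positive library, at levels where 1 FPKM was never approached. Sprr2a1 and Sprr2a2 share 5992 bases of the chromosome in the table, and with Sprr2a3 they have near-identical transcripts, so how reads were divided among these 3 genes is uncertain. Sprr2a3, Sprr2b, Sprr2f, Sprr2h, Sprr2j-ps, Sprr3 and Sprr4 were each listed at 0 in at least 1 library of either group and reached at most 0.224 FPKM. The highest of these values was that of Sprr2h, at 0.224, 0 and 0.219 FPKM in the Biotin-positive libraries and 0 in every Biotin-negative library. Sprr3 was at 0.0957, 0 and 0 FPKM in the Biotin-positive libraries, against 0.159, 0 and 0 FPKM in the Biotin-negative ones, so 1 library of each group carried it.

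The other envelope genes gave no member above 1 FPKM. Of the 14 Lce1 genes, 12 were listed at 0 in all 6 libraries, leaving Lce1g and the low Lce1m. All 6 Lce3 genes, Lce6a and Ivl were also listed at 0 in all 6 libraries. Kprp was at 0, 0.0339 and 0.0206 FPKM in the Biotin-positive libraries and at 0 in all 3 Biotin-negative libraries. Lce1 genes other than Lce1g summed to at most 0.258 FPKM in a Biotin-positive library and at most 0.0949 FPKM in a Biotin-negative library.

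Of the 6 genes for proteins that carry an S100-type domain, Rptn and Tchhl1 were listed at 0 in all 6 libraries. Tchh, which encodes trichohyalin of the hair follicle sheath, stood at 0.0733, 0.0455 and 0.0782 FPKM in the Biotin-positive libraries, against 0.00755, 0 and 0.0111 FPKM in the Biotin-negative libraries. Tchh was higher in every Biotin-positive library, though far below 1 FPKM. Flg stood at 0.0123, 0.0113 and 0.0384 FPKM in the Biotin-positive libraries, against 0.0519, 0.0188 and 0 FPKM in the Biotin-negative libraries, and the groups overlapped. Flg2 and Hrnr were each above 0 in 1 Biotin-positive library, at 0.00518 and 0.00763 FPKM.

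Across the cluster, 27 of 45 members (60.0%) were listed at 0 in all 6 libraries, against 4871 of all 21929 genes (22.2%). The number of members above 0 was 11, 11 and 14 in the Biotin-positive libraries and 7, 3 and 5 in the Biotin-negative libraries. Only 3 members reached 1 FPKM in any library, and the other 42 stayed below 0.3 FPKM in every library. In 5 members (11.1%), Crct1, Lce1g, Sprr2a1, Sprr2a2 and Tchh, every Biotin-positive library was above every Biotin-negative library, against 24.5% of all genes. In no member was every Biotin-positive library below every Biotin-negative library, against 22.5% of all genes. Genes listed at 0 in all 6 libraries cannot meet either pattern, and they are more frequent among the members.

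**Figure D3:**
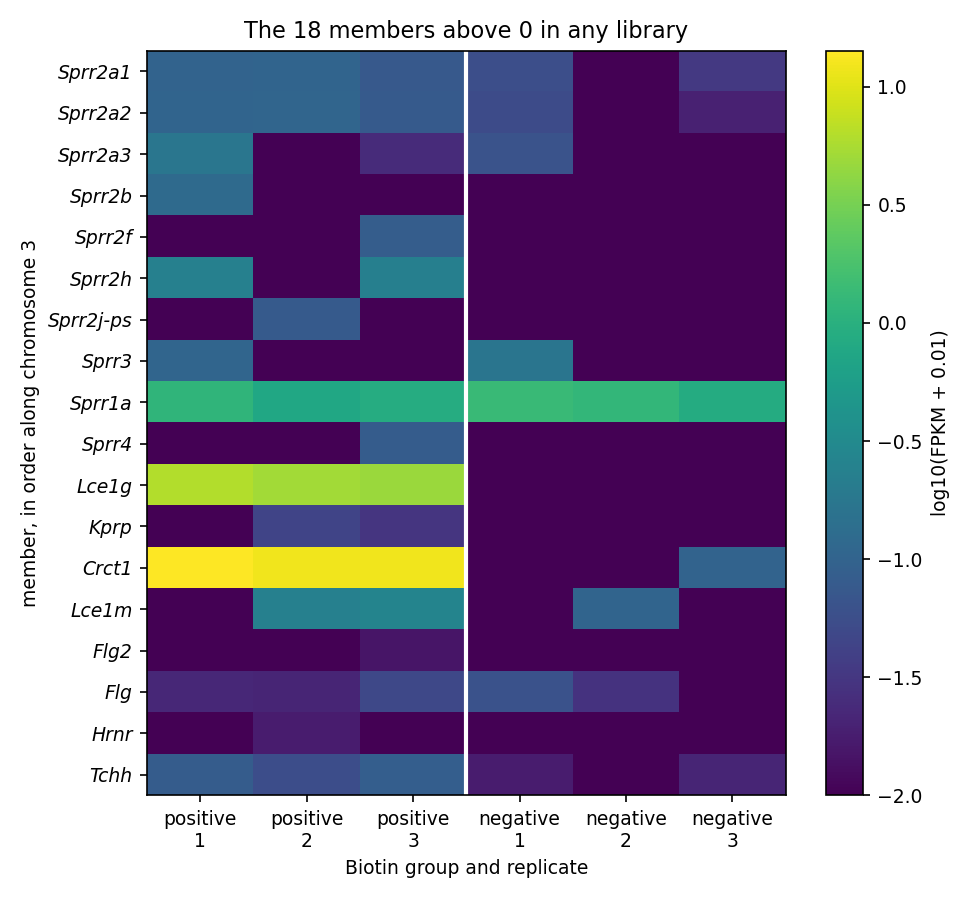
Colour gives log10(FPKM + 0.01) for the 18 members above 0 in any library, in chromosomal order from top to bottom, with Biotin-positive libraries left of the white line and Biotin-negative libraries right of it. Crct1 and Lce1g are bright in the Biotin-positive libraries, Sprr1a is alike in all 6 libraries, and most other cells are at the colour of 0.

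Near-identical copies bear on few of the values. A match was counted at 98% identity or more over at least 100 bases in the same orientation. The search covered the longest protein-coding transcript of each other gene in GENCODE vM21, so transcripts not annotated as protein-coding were not searched. At least 50% of the transcript was matched for 5 of 45 members, the 3 Sprr2a genes and Lce3a and Lce3f, which were listed at 0 throughout. No such match was found for Crct1, Lce1g or Sprr1a. The longest match of Lce1g was to Gm38119, a neighbour 11.1 kb before it, at 83.4% identity over 753 of 925 bases. Gm38119 was listed at 0 in all 6 libraries.

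The 30 other genes of the interval from S100a1 to S100a10, 15 of them S100a genes of small calcium-binding proteins, included 11 that could be tested. Of these, 8 rose, 2 fell and 1 did not pass. Their median log2 difference was 0.42, which includes S100a7a and would be lower without it. One of the 8, S100a7a, reached the level for testing through its Biotin-positive libraries only, and 7 of the 10 others rose. Over all 11029 genes tested with limma, 4168 (37.8%) rose and 3985 (36.1%) fell in Biotin-positive cells, 73.9% in either direction, with a median of 0.01. That balance turned to 4003 higher and 4171 lower with a median of -0.01 under quantile normalization, and to 3583 and 3808, 3654 and 3726, or 3700 and 3733 without Biotin-positive replicate 1, 2 or 3. A single passing gene is therefore common in this comparison. S100a11 rose to 1179 ± 6.83 FPKM in Biotin-positive cells, against 262 ± 6.19 FPKM in Biotin-negative cells (SD, n = 3 each; log2 difference 2.16, limma adjusted p = 4.96e-10). S100a7a, the counterpart of human psoriasin genes, stood at 7.66, 6.48 and 6.67 FPKM in the Biotin-positive libraries, against 0.177, 0.341 and 0.0795 FPKM in the Biotin-negative libraries, with no overlap. S100a6 rose by 1.40 and S100a10 by 1.29 on the log2 scale, with limma adjusted p-values of 4.63e-08 and 3.75e-08. S100a11 lies 48.5 kb beyond Tchhl1, the last member, which was listed at 0 in all 6 libraries. Loricrin (Lor), the main envelope protein and also of this interval, was at 0, 0.0621 and 0.0972 FPKM in the Biotin-positive libraries and at 0 in every Biotin-negative library. Of the 15 interval genes that are neither members nor S100a genes, 9 were listed at 0 in all 6 libraries and 1, Gm9774, reached the level for testing.

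Few genes on other chromosomes that serve the cornified envelope and keratinocytes were high enough to be tested. Of 44 such genes, 6 could be tested, of which 2 rose, 3 fell and 1 did not pass, against 73.9% passing over all tested genes. Their median log2 difference was -0.26, against 0.01 over all tested genes, and would be lower without Perp. Perp reached the level for testing through its Biotin-positive libraries only, so that 1 gene rose when any one of these was left out. A further 13 were listed at 0 in all 6 libraries. Perp, a desmosomal gene, stood at 2.59, 2.59 and 2.50 FPKM in the Biotin-positive libraries with a listed 0 in each Biotin-negative library. Corneodesmosin (Cdsn), which holds cornified cells together, fell to 1.09 ± 0.134 FPKM in Biotin-positive cells, against 3.28 ± 0.130 FPKM in Biotin-negative cells (SD, n = 3 each; limma adjusted p = 1.95e-06). Cstb, the cystatin B protease inhibitor, rose by 0.57 on the log2 scale (limma adjusted p = 5.06e-06). Periplakin (Ppl), an envelope scaffold protein, fell to 1.06 ± 0.0832 FPKM in Biotin-positive cells, against 1.92 ± 0.209 FPKM in Biotin-negative cells (SD, n = 3 each; limma adjusted p = 0.000257). Transglutaminase 1 (Tgm1), the envelope cross-linker, was below the level for testing, at 0.348 ± 0.0941 FPKM in Biotin-positive and 0.363 ± 0.101 FPKM in Biotin-negative cells (SD, n = 3 each).

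Among 32 transcription regulators of epidermal differentiation, 12 could be tested, of which 4 rose, 7 fell and 1 did not pass. Their median log2 difference was -0.27, which includes Ahr and Tfap2a and would be lower without them. Beside this, 73.9% of all tested genes passed, 37.8% higher and 36.1% lower, with a median of 0.01. The genes that rose numbered 1 without Biotin-positive replicate 1 and 2 without Biotin-positive replicate 2 or 3, since Ahr and Tfap2a reached the level for testing through Biotin-positive libraries only and, without replicate 1, Klf4 did not pass. Ahr, the aryl hydrocarbon receptor, stood at 2.67, 2.19 and 2.75 FPKM in the Biotin-positive libraries with a listed 0 in each Biotin-negative library. Arnt, its dimer partner, fell to 19.1 ± 1.66 FPKM in Biotin-positive cells, against 27.6 ± 1.80 FPKM in Biotin-negative cells (SD, n = 3 each; limma adjusted p = 0.000164). Hopx, a homeodomain protein without DNA binding of its own, fell to 7.80 ± 0.504 FPKM in Biotin-positive cells, against 29.0 ± 1.58 FPKM in Biotin-negative cells (SD, n = 3 each; limma adjusted p = 3.69e-08). Tfap2a, the AP-2 alpha factor, was at 1.65 ± 0.0397 FPKM in Biotin-positive cells, against 0.171 ± 0.0528 FPKM in Biotin-negative cells (SD, n = 3 each). Trp63, the master factor of stratified epithelium, was below the level for testing, at 0.0296 to 0.0910 FPKM in Biotin-positive libraries and 0.347 to 0.382 FPKM in Biotin-negative libraries. Grhl3, a grainyhead factor of the epidermal barrier, was listed at 0 in every Biotin-positive library and in 2 of 3 Biotin-negative libraries.

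The AP-1 genes, whose motif many Sprr promoters hold, moved in both directions. Of 11, 9 could be tested, of which 5 rose, 3 fell and 1 did not pass. Their median log2 difference was 0.65, which includes Fosb and would be lower without it. Over all tested genes 37.8% rose and 36.1% fell, with a median of 0.01, so movement in both directions is common here. Fosb reached the level for testing through its Biotin-positive libraries only, at 2.24 ± 0.107 FPKM in Biotin-positive cells, against 0.393 ± 0.0317 FPKM in Biotin-negative cells (SD, n = 3 each), and 4 of the 8 other tested genes rose. Junb rose by 0.78 and Fosl1 by 0.73 on the log2 scale, with limma adjusted p-values of 2.53e-07 and 1.10e-05. Fosl2 fell to 33.8 ± 0.416 FPKM in Biotin-positive cells, against 71.7 ± 1.42 FPKM in Biotin-negative cells (SD, n = 3 each; limma adjusted p = 1.99e-08).

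**Figure D4:**
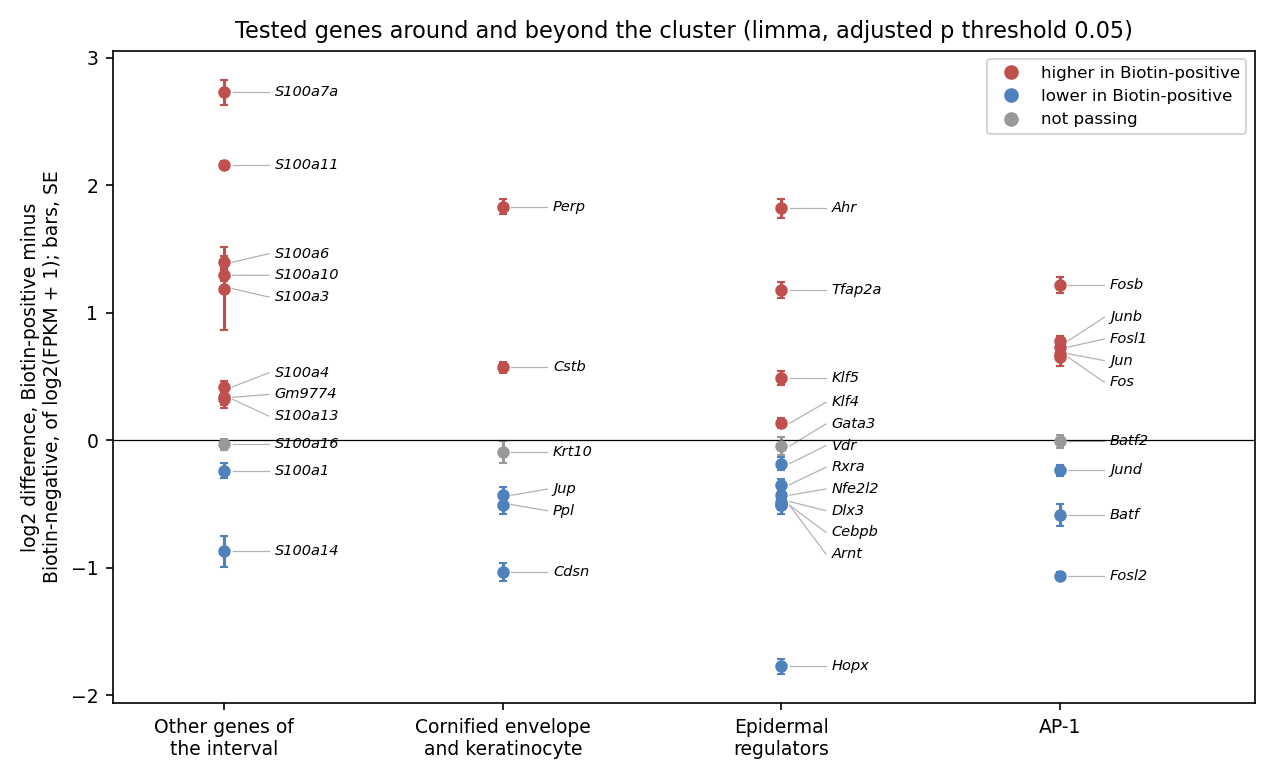
Log2 difference, Biotin-positive minus Biotin-negative, of log2(FPKM + 1) with its SE for each tested gene of 4 groups of genes, in red where it was higher in Biotin-positive, blue where lower and grey where it did not pass the limma adjusted p of 0.05. The other genes of the interval lie mostly above 0, with S100a11 at 2.16, the remaining groups hold genes on both sides of 0, and S100a7a, Perp, Ahr, Tfap2a and Fosb reached the level for testing through Biotin-positive libraries only.

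Markers of other cell types were read beside these results. Of 9 keratinocyte and stratified epithelium markers, Krt5, Krt1, Dsc3 and Krtdap were listed at 0 in all 6 libraries. The markers summed to 2.37 to 2.72 FPKM in Biotin-positive and 2.31 to 2.60 FPKM in Biotin-negative libraries, ranges that overlap. Krt10 and Sfn made up most of that. The 7 others summed to 0.594 to 0.787 FPKM in Biotin-positive and 0.389 to 0.404 FPKM in Biotin-negative libraries, low ranges that do not overlap. Krt14 was at 0.199 to 0.324 FPKM in Biotin-positive libraries and listed at 0 in each Biotin-negative one, and Dsg3, a desmosomal cadherin, was at 0.274 to 0.416 FPKM in Biotin-positive and 0.0223 to 0.0471 FPKM in Biotin-negative libraries. Both were thus higher in every Biotin-positive library, as Crct1 and Lce1g were, while Trp63 was lower in every one. Krt14, Dsg3 and Trp63 stayed well below 1 FPKM, and with depth unknown such low values may not be told from 0. Of 12 markers of simple and glandular epithelium, 2 were at 1 FPKM or more in every Biotin-positive library, Krt7 at 24.0 to 26.1 FPKM and Krt8 at 20.4 to 21.1 FPKM. These 12 summed to 45.5 to 47.9 FPKM in Biotin-positive libraries and 1.28 to 1.36 FPKM in Biotin-negative libraries. Epcam, a defining gene of simple epithelium, reached at most 0.0231 FPKM, and Cdh1 was listed at 0 in every Biotin-positive library. The 10 markers other than Krt7 and Krt8 summed to 0.660 to 1.02 FPKM in Biotin-positive and 0.986 to 1.09 FPKM in Biotin-negative libraries, ranges that overlap. Muc1, a mucin, was lower in every Biotin-positive library, at 0.378 to 0.5998 FPKM, against 0.706 to 0.802 FPKM in Biotin-negative libraries. Krt7 and Krt8, rather than the list as a whole, thus lay in the same direction as Crct1 and Lce1g, and the part of these keratins, Krt14 or Dsg3 in the levels of Crct1 and Lce1g was not tested. Of 6 myeloid markers 2 were at 1 FPKM or more in every library, and the list summed to 8.87 to 10.3 FPKM in Biotin-positive and 9.04 to 11.0 FPKM in Biotin-negative libraries.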

How the data were processed

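Total RNA of 6 L929 libraries, 3 Biotin-positive and 3 Biotin-negative, was sequenced on an Illumina NovaSeq. Per the submitters' processing notes the tools were cutadapt 1.9.1, HISAT2 2.2.1 and HTSeq 0.6.1 with GRCm39. The gene coordinates of the table equal those of GENCODE vM21 on GRCm38 for 21616 of 21816 matched genes (99.1%) and for 45 of 45 members, so they are given as GRCm38. The authors deposited FPKM values, 1 column per library. Reads per library could not be recovered from them, so no counting interval is given, and the SD over libraries is the precision.

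Groups came from the labels. Genes at 1 FPKM or more in at least 3 of 6 libraries were tested on log2(FPKM + 1) with limma 3.58.1 in R 4.3.3 (trend, two-sided), Biotin-positive minus Biotin-negative, adjusted by Benjamini-Hochberg over all 11029 genes at a threshold of 0.05. The procedure was tested on simulated data in which far fewer genes were changed than passed here, so that test gives no error rate for these data. Every entry of the 3 gene lists, 87 in all, was found in the table. Members at 1 FPKM or more in any library are named with every value, other members by range or value, and up to 4 passing genes per list by size of change. Tgm1, Trp63, Grhl3, Lor, Marcks, Tmsb4x, Rhob and the markers named singly were chosen after their values were seen. Transcripts were compared with blastn 2.17.0, and promoters were aligned with Biopython 1.88. Alternatives were other pseudocounts, filters, scalings, levels for on, a replicate block and leaving out each library. The members and lists were chosen with earlier results of these data known.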

Additional observations from a re-analysis of the deposited data

How the results depend on the processing

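Crct1 and Lce1g were on in every Biotin-positive library at 0.1, 0.5 (both with Sprr1a, 3 members) and 1 FPKM, under both other scalings and without any library, and at 5 FPKM the count fell to 1. No member was on in every Biotin-negative library, but 1 was at 0.1 and at 0.5 FPKM (0 to 1 when a library was left out). Members above in every Biotin-positive library numbered 4 under quantile normalization and 5 to 7 when a library was left out. With no filter, 10 of the cornified envelope and keratinocyte genes passed, and with a 5 FPKM filter 2 passed, since fewer genes were tested. With no filter 18 regulators passed. Leaving out a library gave 7380 to 7709 passing genes, 9 to 10 in the interval, 4 to 5 cornified envelope genes, 8 to 11 regulators and 7 to 8 AP-1 genes. Without any Biotin-positive library, S100a7a, Perp, Ahr, Tfap2a and Fosb no longer reached 1 FPKM in 3 libraries and were not tested. Klf4 lost its limma call when Biotin-negative replicate 3 was left out (adjusted p = 0.0544) or Biotin-positive replicate 1 (adjusted p = 0.0554). As alternatives chosen after seeing the data, a pseudocount of 0.1 gave log2 differences of 6.70 for Crct1 and 5.75 for Lce1g, and 0.5 gave 4.65 and 3.54. No log2 difference of a member at 1 FPKM or of a listed gene changed sign under the other scalings, but the balance of all genes did (4003 higher and 4171 lower under quantile normalization). Same-numbered libraries did not deviate together (correlations 0.0371, 0.0120 and 0.0143), and with the replicate block 8040 genes passed in place of 8153, with the same counts in the 4 groups of genes (10, 5, 11 and 8). Depth is unknown, so values far below 1 FPKM cannot be told from 0.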
